A study of Homo sapiens with 28 samples.

Results

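THP-1 is an MLL-r AML line that kept proliferating under Pinometostat, whereas MV4-11, MOLM-13 and NOMO-1 are MLL-r lines with fewer cells under the same drug, according to the description of the experiment. The comparison described here asked which genes responded differently in THP-1 than in the sensitive MLL-r lines, so that, for each gene, the treated minus control change of THP-1 was set against the mean of the same change in MV4-11, MOLM-13 and NOMO-1. Members were the genes whose THP-1 change lay outside the range of the other 3 lines: 8510 of the 17687 named genes. Of the 28 arrays of the series, 16 belong to these 4 lines, with 2 arrays per line and condition. Treated cells had been kept for 8 days in 1 µM Pinometostat and control cells for the same time in DMSO 0.01%, the vehicle, and all 4 lines carry a rearranged MLL gene (MLL-AF9 in THP-1, MLL-AF4 or MLL-AF9 in the sensitive lines). Each group is a single established cell line, so that what belongs to THP-1 as a line and what belongs to poor sensitivity cannot be told apart, and since no source used here says whether the 2 replicates of a group were separate cultures, a p-value covers only the spread between these arrays, which may be technical.

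DOT1L places methyl groups on a lysine in the core of histone H3, a mark of transcribed genes, and Pinometostat blocks it by occupying the site of the methyl donor S-adenosylmethionine. MLL fusion proteins bring DOT1L to developmental and stem cell genes such as MEIS1 and FLT3, which are then kept active. Loss of the mark in MLL-r cells is known to lower these genes and to be followed by slower proliferation and by features of monocyte or granulocyte maturation.

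All values are log2 signals of Clariom S arrays, on which 1 unit is a doubling of signal, and differences are given with the SE of the fit. Array medians lay between 5.61 and 5.74, and the number of arrays limits the precision. Over 9 measured markers of myeloid identity, control cells averaged 9.13 (MV4-11) to 9.80 (NOMO-1), against 3.79 to 5.03 for 6 lists of markers of other blood, stromal and epithelial cells, with MPO at 5.60 in MV4-11 and 5.96 in NOMO-1 and FCER1G at 4.28 in MOLM-13 as the low members. The eosinophil, basophil and mast cell list was the only one of the 6 lists with a line in which it averaged above 6, in treated NOMO-1 cells (6.37, against 5.01 in the controls), and the part of this in the results was not tested.

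THP-1 lay above the range of the sensitive lines in 4346 genes (24.6%) and below it in 4164 (23.5%), together 48.1%. With 4 lines, 50% is the mean share over the lines, since for every gene 1 line is the highest and 1 the lowest, so the count says nothing particular about THP-1. The distance from the range was under 0.1 in 2583 genes and at least 1 in 158, of which 84 lay above and 74 below. ADAMTS3, the gene just outside, lay 6.87e-06 beyond the range, and CROCC, just inside, 8.44e-05 within it. Across genes, which are not independent replicates, the change in THP-1 correlated with that in NOMO-1 at r = 0.307, in MV4-11 at 0.206 and in MOLM-13 at 0.164, while the 3 sensitive lines correlated with each other at 0.283 to 0.313. The difference itself was called (limma, Benjamini-Hochberg adjusted p under 0.05) in 66 genes, 0.373% of those tested, with 994 at an unadjusted p under 0.05: 25 higher (0.141%) and 41 lower (0.232%) in THP-1 than in the sensitive lines. Of these, 62 were among the members, and GFRA2, IGF1, STEAP4 and CTSG were not. Within the lines, 74 genes rose (0.418%) and 45 fell (0.254%) in THP-1, 199 (1.13%) and 80 (0.452%) in MV4-11, 39 (0.221%) and 0 in MOLM-13 (176 lower at an unadjusted p under 0.05) and 629 (3.56%) and 401 (2.27%) in NOMO-1, so that NOMO-1 had the most called genes and MOLM-13 the fewest. With the replicate number as a block these counts were 401 (2.27%) and 197 (1.11%) in THP-1, 671 (3.79%) and 660 (3.73%) in MV4-11, 113 (0.639%) and 3 (0.017%) in MOLM-13 and 1452 (8.21%) and 1505 (8.51%) in NOMO-1, and within a line rose and fell refer below to the fit without the block. With control and treated arrays of the same replicate number taken as a block, 436 genes (2.47%) were called, 214 higher (1.21%) and 222 lower (1.26%), and all 66 were among them.

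The count of 66 changed when single arrays were left out. Leaving out an array leaves 1 in its group and lowers the precision. A lost call therefore need not mean that the difference depends on that array. Without any 1 of the 4 THP-1 arrays, 3 to 15 genes were higher and 11 to 18 lower; without any 1 of the MV4-11 arrays, 11 to 14 and 23 to 29. The other arrays that moved a count by over 1.5 times were MOLM-13 control 1 (13 and 24 without it), MOLM-13 control 2 (13 and 27), NOMO-1 treated 1 (14 and 29) and NOMO-1 treated 2 (12 and 27). SHOX2, KCNH2, CD209, SOCS2, TIMP3, EFNA5, GPR183, CHI3L1, S100A12, MPO and PEX5L, 11 genes in all, kept their call whichever of the 16 arrays was left out, and the other 55 lost it without at least 1 array. DBN1 and GABARAPL1 passed the threshold last, at adjusted p = 0.0482 and 0.0494, and KCNA3 (0.055) and NCS1 (0.0568) just missed it.

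**Figure D1:**
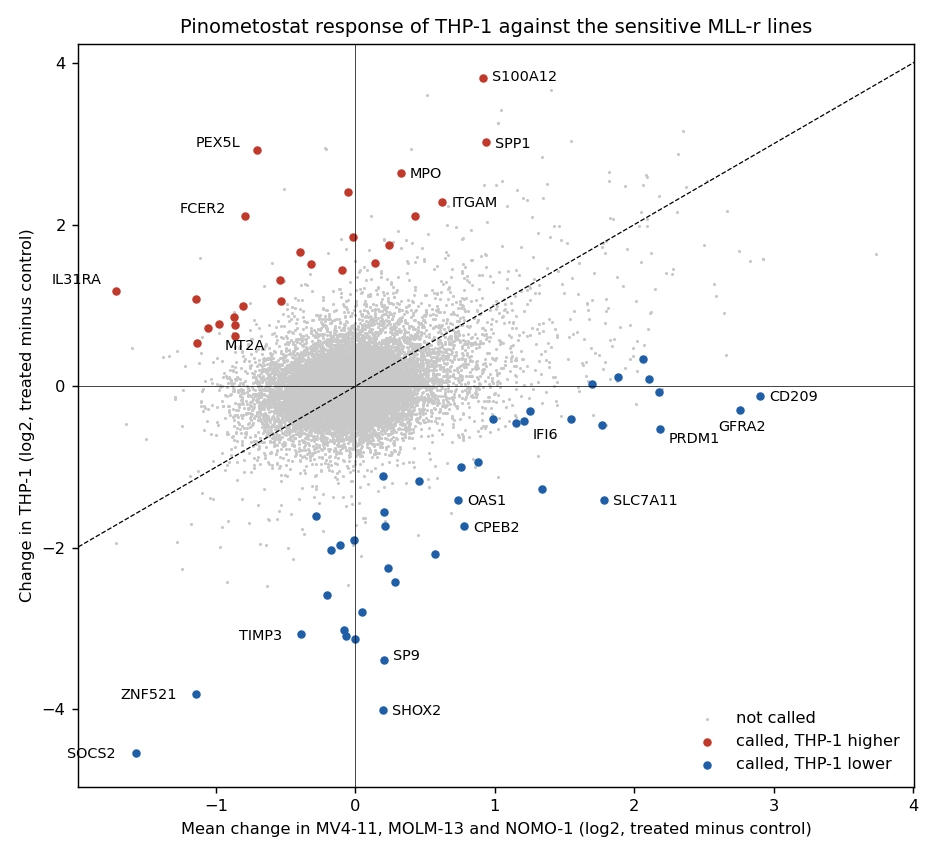
Treated minus control change (log2) of 17687 genes in THP-1 (vertical) against the mean change of MV4-11, MOLM-13 and NOMO-1 (horizontal); red and blue points are the 25 and 41 genes called higher and lower in THP-1, and the dashed line marks equal change. Blue points form a downward arm, with SHOX2 and SP9 near a sensitive mean of 0, and an arm to the right near a THP-1 change of 0, ending in CD209.

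Called genes differed in which side had moved. The mean change of the sensitive lines passed the test upward in 592 genes (3.35%) and downward in 378 (2.14%), and with the replicate block in 1399 (7.91%) and 1777 (10%), so that the larger count changed sides. Of the 41 lower genes, 19 changed by the test in THP-1 but not in the mean of the sensitive lines, 18 changed in the sensitive mean but not in THP-1, 2 changed on both sides in the same direction, 1 in opposite directions and 1 on neither side. Of the 25 higher genes, the same classes held 10, 9, 3, 2 and 1. With the block the classes of the same genes held 16, 14, 3, 8 and 0 lower and 8, 3, 4, 10 and 0 higher genes, since SLC7A11, MMP2, PTX3, PLEKHO1, IL31RA, OCSTAMP and 4 metallothioneins, among others, then changed in opposite directions on both sides. THP-1 moved against a direction shared by all 3 sensitive lines in 25 of the 66 genes (11 higher, 14 lower), and in 2490 (14.1%) of all genes. The 66 genes were chosen by their difference from these same lines, which favors opposite directions, so the 2 counts are a description only.

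Among genes that fell in THP-1 and not in the mean of the sensitive lines, SHOX2, SP9 and KCNH2 had the largest differences. SHOX2, a homeobox transcription factor, read 8.50 and 8.65 in THP-1 control cells and 4.92 and 4.23 in treated cells. In the sensitive lines its 2 control arrays read 6.19 and 6.41 in MV4-11, 8.74 and 8.37 in MOLM-13 and 3.31 and 2.81 in NOMO-1, and the treated arrays 7.52 and 6.56, 8.61 and 7.77, and 3.39 and 3.18. Treated and control arrays thus stood apart by over 3 units in THP-1 and overlapped in MOLM-13, where SHOX2 was as high as in THP-1 before treatment. SHOX2 fell by 4.00 ± 0.37 in THP-1 (adjusted p = 0.000197) and the difference from the sensitive lines was -4.20 ± 0.43 (adjusted p = 0.000727), 18.4-fold. KCNH2, a voltage-gated potassium channel, went from 8.75 and 8.77 to 5.54 and 5.73 in THP-1 and stayed between 4.34 and 5.26 in all 12 arrays of the sensitive lines, a difference of -3.12 ± 0.38 (adjusted p = 0.00294). TIMP3, an inhibitor of matrix metalloproteinases, went from 9.51 and 9.48 to 6.33 and 6.53 in THP-1, and from 8.09 and 7.90 to 6.25 and 6.23 in NOMO-1, where it also fell (-1.75, adjusted p = 0.000249). In MV4-11 and MOLM-13 its change was 0.47 and 0.10, and the difference was -2.67 ± 0.25 (adjusted p = 0.000585).

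EFNA5, a membrane-bound ephrin ligand, fell in THP-1 from 8.64 and 9.10 to 6.02 and 6.54. MOLM-13, the only sensitive line with EFNA5 at this height, read 9.13 and 9.23 before and 8.46 and 8.44 after treatment, and the other sensitive lines lay between 3.05 and 3.81. Its difference was -2.38 ± 0.30 (adjusted p = 0.00341). GPR183, an oxysterol-sensing chemotactic receptor, fell by 2.08 in THP-1 and was 6.28-fold lower in the comparison (adjusted p = 0.00294). Besides KCNH2, genes that read no higher than 5.71 on any array of the sensitive lines, with both THP-1 control arrays above all 12 of these, were PGR (the progesterone receptor), FOXD1 (a forkhead factor), SP9 (a zinc finger factor), THSD7A, PCDH7 (a protocadherin), SYDE2 and the antisense RNA POPDC1-AS1. PGR, for example, read 6.41 and 5.74 in THP-1 control cells, 3.45 and 2.67 after treatment and 1.84 to 2.51 elsewhere. Their differences ran from -1.85 ± 0.29 (SYDE2) to -3.59 ± 0.47 (SP9), and BHLHE22, a neural bHLH factor that read 7.62 and 6.11 in THP-1 control cells, had -2.71 ± 0.48. The low signal of the sensitive lines left these genes little room for a fall there, which limits the comparison. SOX4, an HMG-box factor, and WNK1, a kinase of ion transport, read at least 6.72 on every array of the sensitive lines: SOX4 changed by -1.90 in THP-1 and by -0.21 to 0.16 elsewhere (difference -1.90 ± 0.30, adjusted p = 0.0148), and WNK1 by -1.73 and by -0.12 to 0.74. DBN1 and MARCKSL1, which bind actin, and DMWD complete the class, with differences of -1.31, -1.62 and -1.32, and MARCKSL1 rose in NOMO-1 (1.23). In bulk RNA, fewer cells that express a gene and less of its RNA per cell cannot be told apart.

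Among 26 measured MLL fusion targets, none was called higher and 3 lower (replicate block: 2 and 4), THP-1 lay below the range in 12 (46.2%, against 23.5% of all genes), and the median difference was -0.30, against 0.0048 over all genes. The median change was -0.60 in THP-1, -0.47 in MV4-11, -0.27 in MOLM-13 and -0.79 in NOMO-1. The lowest median of the list was thus that of NOMO-1, a sensitive line, and not that of THP-1. SOCS2, a feedback inhibitor of cytokine signaling through STAT5, read 9.01 and 8.76 in THP-1 control cells and 4.08 and 4.61 after treatment. It went from 9.48 and 9.13 to 5.88 and 5.52 in NOMO-1, from 8.24 and 8.31 to 7.70 and 7.77 in MV4-11 and from 10.001 and 10.112 to 9.54 and 9.42 in MOLM-13, so that treated arrays lay below the controls in all 4 lines by over 3 units in THP-1 and NOMO-1 and by under 1 unit in the others. The difference was -2.96 ± 0.29 (adjusted p = 0.000585, 7.81-fold). ZNF521, a zinc finger factor of early progenitors, likewise changed most in THP-1 and NOMO-1, with changes of -3.81 in THP-1, -2.65 in NOMO-1, -0.61 in MV4-11, where it was at 3.28 and 3.11 from the start, and -0.17 in MOLM-13 (difference -2.67 ± 0.43, adjusted p = 0.0165). CPEB2, which controls translation through mRNA tails, fell in THP-1 (-1.73) and rose in NOMO-1 (2.54), a difference of -2.51 ± 0.37 (adjusted p = 0.0106). MEIS1 and CDK6 did not pass the test of the difference: MEIS1 changed by -1.93 in THP-1 against -1.71 on average (difference -0.22 ± 0.42), with signs that turn when single lines or arrays are left out, and CDK6 by -1.04 against -0.93 (-0.10 ± 0.35). IGF2BP2, an RNA-binding protein of fetal tissue, changed by -2.26 in THP-1 and -2.76 in NOMO-1 but -0.66 and -0.31 in MV4-11 and MOLM-13 (difference -1.02 ± 0.29, adjusted p = 0.297). FLT3, a receptor tyrosine kinase, had a difference of the other sign: it went from 6.92 and 6.95 to 6.72 and 6.23 in THP-1, from 9.81 and 9.60 to 7.99 and 7.54 in MV4-11, from 9.67 and 9.56 to 9.31 and 9.10 in MOLM-13 and from 6.98 and 6.03 to 4.28 and 3.54 in NOMO-1. It fell in MV4-11 and NOMO-1, and THP-1 lay within the range. Its difference of 1.19 ± 0.39 was not called (adjusted p = 0.45) but was with the replicate block (adjusted p = 0.0182). DOT1L itself, the target of the drug, changed by -0.35 in THP-1 and by -0.18 to 0.17 in the others.

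The other arm of lower genes rose in sensitive lines and not in THP-1. CD209, a C-type lectin of dendritic cells and macrophages, read 4.93 and 5.03 in THP-1 control cells and 4.78 and 4.94 after treatment. It went from 6.25 and 6.66 to 9.61 and 9.49 in MV4-11, from 4.44 and 4.21 to 6.74 and 6.32 in MOLM-13 and from 4.45 and 4.21 to 7.97 and 7.50 in NOMO-1. Every treated array of the sensitive lines lay above the controls of its line, and the THP-1 arrays overlapped. The difference was -3.02 ± 0.30 (adjusted p = 0.000585). Of 12 genes called in the same direction in all 3 sensitive lines, all higher (52 with the replicate block, also all higher), CD209, JUN and TNFRSF21 were the 3 that THP-1 did not share at an unadjusted p under 0.05. JUN, a subunit of the AP-1 transcription factor, changed by 1.96, 1.58 and 1.99 in MV4-11, MOLM-13 and NOMO-1 and by 0.50 in THP-1, and TNFRSF21, a death domain receptor, by 1.01, 1.92 and 2.15 and by 0.47. Their differences, -1.35 ± 0.29 and -1.22 ± 0.26, had an adjusted p of 0.0743 each and passed with the replicate block (0.00862 and 0.0178).

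PRDM1, a transcriptional repressor of lymphoid and myeloid terminal differentiation, went from 6.29 and 6.04 to 9.08 and 9.05 in MV4-11, from 6.70 and 6.23 to 8.13 and 7.30 in MOLM-13 and from 7.23 and 6.69 to 9.38 and 9.33 in NOMO-1. In THP-1 it read 6.99 and 6.52 before and 6.42 and 6.04 after treatment, and the difference was -2.71 ± 0.36 (adjusted p = 0.00491). Of the 16 arrays, THP-1 treated 2 was the only one without which the call was lost (adjusted p = 0.0673), and it was also lost without MV4-11 (0.0608). SLC7A11, the cystine transporter that feeds glutathione synthesis, had changes of opposite sign: it went from 8.87 and 8.33 to 7.53 and 6.86 in THP-1 (-1.40, adjusted p = 0.398 within the line, 0.0102 with the replicate block) and its mean change was 1.79 in the sensitive lines (adjusted p = 0.00178). The difference was -3.19 ± 0.55 (adjusted p = 0.0284), a call that was lost without 10 of the 16 arrays taken singly, with adjusted p up to 0.205. NQO1, a quinone reductase, and HMOX1, heme oxygenase, which like SLC7A11 belong to the antioxidant response, were chosen after their values were seen: NQO1 changed by -1.24 in THP-1 and by 1.07, 1.06 and -0.56 in MV4-11, MOLM-13 and NOMO-1 (difference -1.77 ± 0.49, adjusted p = 0.263, block 0.00155), and HMOX1 by 0.34 against 0.34, 2.94 and 2.63 (difference -1.63 ± 0.38, adjusted p = 0.115, block 0.0265).

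Other genes of this class were called in 1 or 2 of the sensitive lines by the fit without the block. CHI3L1, a secreted chitinase-like protein of macrophages, was far higher in THP-1 control cells (11.95 and 12.02) than in the controls of the other lines (7.57 to 9.58), and treatment left THP-1 at 11.58 and 11.57 while MV4-11 rose by 2.83 and NOMO-1 by 0.97 (difference -1.95 ± 0.25, adjusted p = 0.0044). IL18BP, which neutralizes interleukin 18, changed by -0.08 in THP-1 and rose by 2.16 in MV4-11 and 3.14 in NOMO-1, with 1.23 in MOLM-13 (adjusted p = 0.348, block 0.0448). SIGLEC10, an inhibitory lectin, changed by 0.03 in THP-1 and rose by 2.24 and 1.80, with 1.05 in MOLM-13. IL1R2, the decoy receptor for interleukin 1, NR4A3, a nuclear receptor, PTX3, a soluble pattern receptor, MMP14, PLEKHO1 and STEAP4, a metalloreductase, rose in NOMO-1 only: IL1R2 rose there by 5.18 and STEAP4 by 6.09, against -0.33 to 0.45 and -0.05 to 0.28 in MV4-11 and MOLM-13. GFRA2, a receptor for glial-derived growth factors, IGF1 and HLA-DQA1, an MHC class II chain, rose in MV4-11 and NOMO-1 and not in MOLM-13 (GFRA2 3.45, 5.29 and -0.46), and THP-1 lay within the range for GFRA2 and IGF1. MMP2, a gelatinase, fell short of a call in THP-1 (-1.27, adjusted p = 0.0734), which it passed with the replicate block (0.0242), and rose in MV4-11 (2.55), a difference of -2.61 ± 0.33. GABARAPL1, an autophagy protein, changed by 0.34 in THP-1 and by 1.22 (MOLM-13, adjusted p = 0.24, block 0.0137) to 2.52 in the others. Without NOMO-1, 25 of the 66 called genes kept their call, without MV4-11 32 and without MOLM-13 50.

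**Figure D2:**
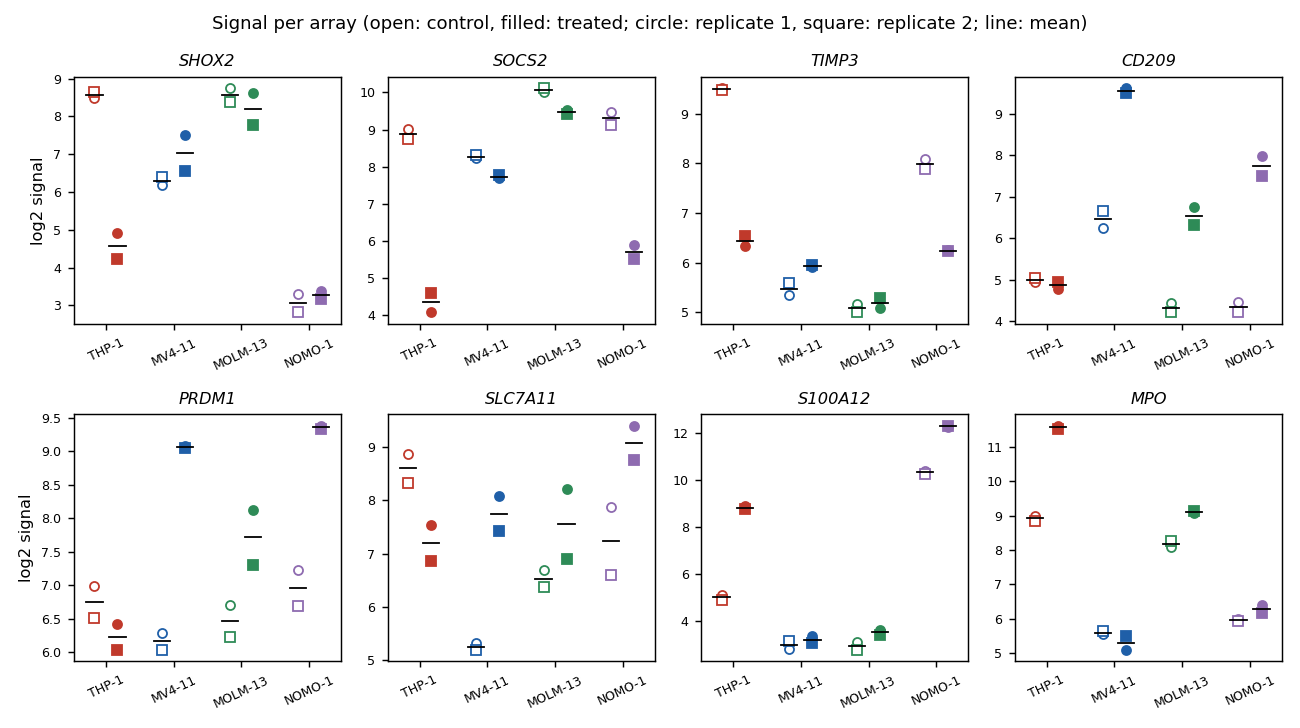
log2 signal of 8 genes on the 16 arrays (open symbols control, filled symbols treated, circles replicate 1, squares replicate 2, short lines group means; each panel has its own axis). SHOX2, SOCS2 and TIMP3 drop in THP-1 by 3 units or more, treated arrays of CD209, PRDM1 and SLC7A11 lie above the controls in every line but THP-1, and S100A12 and MPO have their largest change in THP-1.

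Genes higher in THP-1 included some myeloid genes, while CD209 and CHI3L1, named above as macrophage genes, were among the lower ones. S100A12, a calgranulin of monocytes and neutrophils, read 5.12 and 4.89 in THP-1 control cells and 8.89 and 8.75 after treatment, a rise of 3.82 ± 0.23. NOMO-1, already at 10.40 and 10.27, reached 12.26 and 12.31, and MV4-11 and MOLM-13 stayed between 2.78 and 3.63. The difference was 2.90 ± 0.27 (adjusted p = 0.000585). MPO, myeloperoxidase of primary granules, went from 8.9992 and 8.8566 to 11.62 and 11.52 in THP-1 and from 8.10 and 8.25 to 9.09 and 9.14 in MOLM-13. It stayed between 5.10 and 6.40 in MV4-11 and NOMO-1, and the difference was 2.32 ± 0.25 (adjusted p = 0.00129, 4.98-fold). CTSG, cathepsin G, which is stored in the same granules, went the other way in THP-1, from 10.23 and 10.16 to 8.32 and 8.97. It rose in MV4-11 (1.95) and fell in NOMO-1 (-1.73), so that THP-1 lay within the range and the difference was -1.75 ± 0.28 (adjusted p = 0.0165). SPP1, the secreted phosphoprotein osteopontin, rose by 3.02 in THP-1 and 1.64 in NOMO-1, with 1.30 in MOLM-13 (adjusted p = 0.15, block 0.0264) and -0.14 in MV4-11 (difference 2.09 ± 0.33). ITGAM, the alpha chain of an integrin that serves as complement receptor, rose by 2.29 in THP-1, with changes of 0.48 to 0.83 elsewhere (difference 1.66 ± 0.31, adjusted p = 0.0418). ITGAM lost its call without 13 of the 16 arrays, and SPP1 without 3, at adjusted p up to 0.293 and 0.122. CST7, an inhibitor of lysosomal proteases, CD300A, an inhibitory receptor, NFE2, a transcription factor of platelet and myeloid genes, and MPP7, a polarity scaffold, rose in THP-1 (2.11, 1.44, 1.53 and 1.75) with a mean change of -0.10 to 0.42 in the sensitive lines. NFE2 rose in MV4-11 too (1.07).

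PEX5L, a relative of the peroxisomal import receptor, had the largest positive difference among the called genes, 3.62 ± 0.40 (adjusted p = 0.00129). It went from 2.78 and 3.19 to 5.95 and 5.86 in THP-1 and from 5.80 and 6.12 to 4.31 and 3.38 in NOMO-1, and stayed between 2.38 and 3.08 in MV4-11 and MOLM-13. FCER2, the low-affinity IgE receptor, rose by 2.10 in THP-1 and fell by 2.14 in NOMO-1 (difference 2.90 ± 0.40), IL31RA, a cytokine receptor, changed by 1.18 in THP-1 and fell by 3.77 in NOMO-1 (2.89 ± 0.46), and ANXA8L1, an annexin whose close paralogs may share its probes, changed by 1.05 and fell by 2.40 (1.58 ± 0.30). NOMO-1 fell for all 4 of these genes, and MV4-11 changed by -1.25 for IL31RA and by -0.79 for FCER2 (adjusted p = 0.196 and 0.479, block 0.0216 and 0.0487). OCSTAMP, a fusion protein of osteoclasts, changed by 1.08 in THP-1 and fell by 2.13 in MV4-11, and PIM1, a serine kinase downstream of STAT5, rose by 1.31 in THP-1 and fell by 1.14 in MV4-11 (difference 1.86 ± 0.28, adjusted p = 0.0119). NT5E, an ectonucleotidase that makes adenosine, went from 5.03 and 4.03 to 7.32 and 6.54 in THP-1 and lay between 2.70 and 3.72 on all 12 arrays of the sensitive lines. BCL11A, a repressor of fetal globin and a lymphoid factor, PLEKHA2, a phosphoinositide-binding adaptor, and RIPOR2 rose in THP-1 by 1.51 to 1.85 from control levels of 4.24 to 6.47, while the mean change of the sensitive lines was -0.40 to -0.02 and BCL11A fell in NOMO-1 (-1.07). LPL, SLC22A4, PCDH11X, SPNS3 and AIF1 rose in THP-1 with no change at an unadjusted p under 0.05 in any sensitive line, but their differences (0.92 to 2.00) passed only with the replicate block (adjusted p from 0.00229 to 0.045). In all, 24 genes had this pattern, 7 higher and 17 lower, and the difference was called in 12 of them, or in 24 with the replicate block. Over all genes it was called in 0.373%, or in 2.47% with the block. The pattern was defined by the same changes that enter the difference, which favors a call, so these counts are a description only.

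Myeloid maturation genes, taken as lists, lay on both sides. Of 51 monocyte and macrophage genes, 3 were called higher and none lower (replicate block: 4 and 4), THP-1 lay above the range in 8 (15.7%) and below in 10 (19.6%), both shares lower than over all genes (24.6% and 23.5%), and 44 (86.3%) had a change above 0 in THP-1, against 49% of all genes. The median change was 0.54 in THP-1, 0.49 in MV4-11, 0.55 in MOLM-13 and 1.78 in NOMO-1, so the median difference of -0.32 turned to 0.13 without NOMO-1. Of 27 neutrophil granule and maturation genes, MPO was called higher and CTSG lower, and with the replicate block 4 were higher and 6 lower (1.21% and 1.26% of all genes). At an unadjusted p under 0.05 (limma), 4 genes of this list were higher and 7 lower. The monocyte and macrophage list held 8 and 12 such genes, and all 17687 genes 423 and 571. LTF, lactoferrin of secondary granules, changed by -0.03 in THP-1 and by 5.42 in NOMO-1 (difference -2.23 ± 0.56, adjusted p = 0.168, block 0.0231), and DEFA4, a defensin of primary granules, by 3.26 and 2.20, with 0.15 and 0.73 in MV4-11 and MOLM-13 (difference 2.24 ± 0.45, adjusted p = 0.0609, block 0.000332). OLR1, a scavenger receptor for oxidized lipoprotein, changed by 1.63 in THP-1, 1.17 in MV4-11, 5.51 in MOLM-13 and 4.53 in NOMO-1 (difference -2.10 ± 0.45, adjusted p = 0.0743, block 0.00575). Of the leukocyte antigens that the study singled out, CD14 changed by 2.15 in THP-1 against 2.31 (difference -0.16 ± 0.49), CD36 by 1.40 against 1.71 (-0.31 ± 0.55), CD84 by 1.43 against 0.76 (0.67 ± 0.41) and CD86 by 1.81 against 1.48 (0.33 ± 0.49), none passing the test, which does not show that they changed alike. CD48 changed by 1.93 in THP-1 against 0.31 and passed only with the replicate block (difference 1.62 ± 0.45, adjusted p = 0.256, block 0.0236).

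Genes of cholesterol and fatty acid synthesis had lower signal after treatment in the sensitive lines. Of the 28 measured, 3 fell in MV4-11 (0.452% of all genes did), none in MOLM-13 (0%) and 7 in NOMO-1 (2.27%). None changed by the test in THP-1. With the replicate block 15 fell in MV4-11 (3.73% of all genes did), none in MOLM-13 (0.017%) and 18 in NOMO-1 (8.51%). In that fit 1 rose in NOMO-1 (8.21%) and 3 rose in THP-1 (2.27%). THP-1 lay above the range in 25 of the 28 (89.3%, against 24.6% of all genes) and below it in 1, SCAP. Of the list, 22 (78.6%, against 20.4% of all genes) changed below 0 in all 3 sensitive lines, and 20 (71.4%, against 49%) changed above 0 in THP-1. The median change was 0.21 in THP-1, -0.71 in MV4-11, -0.42 in MOLM-13 and -0.94 in NOMO-1, and the median difference was 0.97. Called genes were FADS2 and SCD, the desaturases of polyunsaturated and monounsaturated fatty acids (none lower), with 14 higher at an unadjusted p under 0.05. With the replicate block 12 were called higher, against 1.21% of all genes. SCD read 9.76 and 9.67 in THP-1 control cells and 10.28 and 10.22 after treatment. It went from 9.56 and 9.73 to 8.30 and 8.52 in MV4-11, from 10.18 and 10.30 to 9.77 and 9.49 in MOLM-13 and from 10.33 and 9.93 to 8.59 and 8.53 in NOMO-1. Treated arrays thus lay above the controls in THP-1 and below them in each sensitive line, with a difference of 1.68 ± 0.26 (adjusted p = 0.0148). FADS2 had the same pattern (1.78 ± 0.26, adjusted p = 0.0089). HMGCS1, which makes HMG-CoA for sterol synthesis, changed by 0.61 in THP-1 and by -1.27, -0.66 and -1.37 in MV4-11, MOLM-13 and NOMO-1, and DHCR7, the last enzyme before cholesterol, by 0.47 and by -2.06, -0.90 and -1.85. Their differences of 1.71 ± 0.53 and 2.08 ± 0.47 passed only with the replicate block (adjusted p = 0.38 and 0.103 without, 0.00155 and 0.00176 with it), as did ACACA, the carboxylase that starts fatty acid synthesis (1.19 ± 0.34), and INSIG1, a sterol-regulated brake on SREBP processing (1.20 ± 0.25). INSIG1 was an exception within the list, since its change was above 0 in NOMO-1 too (0.63, against 0.96 in THP-1). The count above the range was 22 to 25 without any 1 array and 25 to 27 without any 1 sensitive line. THP-1 control cells had the lowest mean of the 4 lines in 14 of the 28 genes (50%, against 25.8% of all genes). Treated THP-1 cells had the highest mean in 14 (50%, against 24.2%).

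Metallothioneins, small cysteine-rich proteins that bind zinc and copper and are induced by these metals, were picked after their values were seen, because MT1B, MT1F, MT1G, MT1M and MT2A were among the 25 genes called higher. Of 13 measured, 5 were called higher and none lower (replicate block: 10 and none), THP-1 lay above the range in 10 and below in 1, MT3, and the median difference was 1.41. MT2A read 10.86 and 10.43 in THP-1 control cells and 11.59 and 11.23 after treatment. It went from 12.08 and 11.71 to 10.55 and 10.49 in MV4-11, from 10.94 and 10.56 to 10.50 and 10.23 in MOLM-13 and from 12.92 and 12.82 to 12.17 and 11.93 in NOMO-1. Treated arrays lay above the controls in THP-1 and below them in the other lines, with a difference of 1.62 ± 0.30 (adjusted p = 0.037), lost without 15 of the 16 arrays (adjusted p up to 0.308). None of the 13 was called within THP-1 by the fit without the block. With the replicate block 5 were higher there (2.27% of all genes were), 10 lower in MV4-11 (3.73%), none lower in MOLM-13 (0.017%) and 9 lower in NOMO-1 (8.51%). Control cells of THP-1 had the lowest mean of the 4 lines in 12 of the 13 genes (92.3%, against 25.8% of all genes), and treated cells in 2 (15.4%, against 27.1%). MT1M, the member with the smallest adjusted p (0.00975), changed by 0.85 in THP-1 and by -1.07, -0.41 and -1.13 in MV4-11, MOLM-13 and NOMO-1. MT1E differed in that it changed by -0.16 in THP-1 and fell by 2.71 in NOMO-1 (difference 1.14 ± 0.24, adjusted p = 0.0743, block 0.0175), and MT3 (-0.13 ± 0.46), MT4 (0.21 ± 0.37) and MT1HL1 (0.46 ± 0.43) were not called in either fit. Sequences of the family are near-identical, so the array may not tell the members apart and their values are not independent. Metallothionein promoters are known to hold metal response elements, the sites of the zinc-sensing factor MTF1, and are shown here because these genes moved together. Windows of 300 bases, from 250 before to 50 after the start in RefSeq (GRCh38.p14), were found for 5 of the 13 genes. The core of the metal response element, searched as TGCACNC or TGCGCNC on both strands without counting overlapping matches again, occurred at least 3 times in each of the 5, and in 448 (1.64%) of 27305 promoters of the same length. MT2A (8 matches) lies on the plus strand at chr16:56608334-56608633 and MT1B (3 matches) on the plus strand at chr16:56651636-56651935, with the matches in capitals:
MT2A: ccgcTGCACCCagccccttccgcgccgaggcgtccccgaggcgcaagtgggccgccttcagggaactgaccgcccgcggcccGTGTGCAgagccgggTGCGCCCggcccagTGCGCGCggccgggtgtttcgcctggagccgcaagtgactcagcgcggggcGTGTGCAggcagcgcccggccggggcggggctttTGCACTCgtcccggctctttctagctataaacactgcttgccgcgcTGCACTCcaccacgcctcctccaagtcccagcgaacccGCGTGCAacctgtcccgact
MT1B: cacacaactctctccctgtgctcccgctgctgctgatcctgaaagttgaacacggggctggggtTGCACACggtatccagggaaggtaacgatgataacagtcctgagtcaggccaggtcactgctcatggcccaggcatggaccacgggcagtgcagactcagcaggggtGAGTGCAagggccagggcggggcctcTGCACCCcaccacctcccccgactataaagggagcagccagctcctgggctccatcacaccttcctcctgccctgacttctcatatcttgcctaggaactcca
MT4, which also had 3 matches, read between 3.93 and 5.26 on all 16 arrays. The matches describe these windows only.

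**Figure D3:**
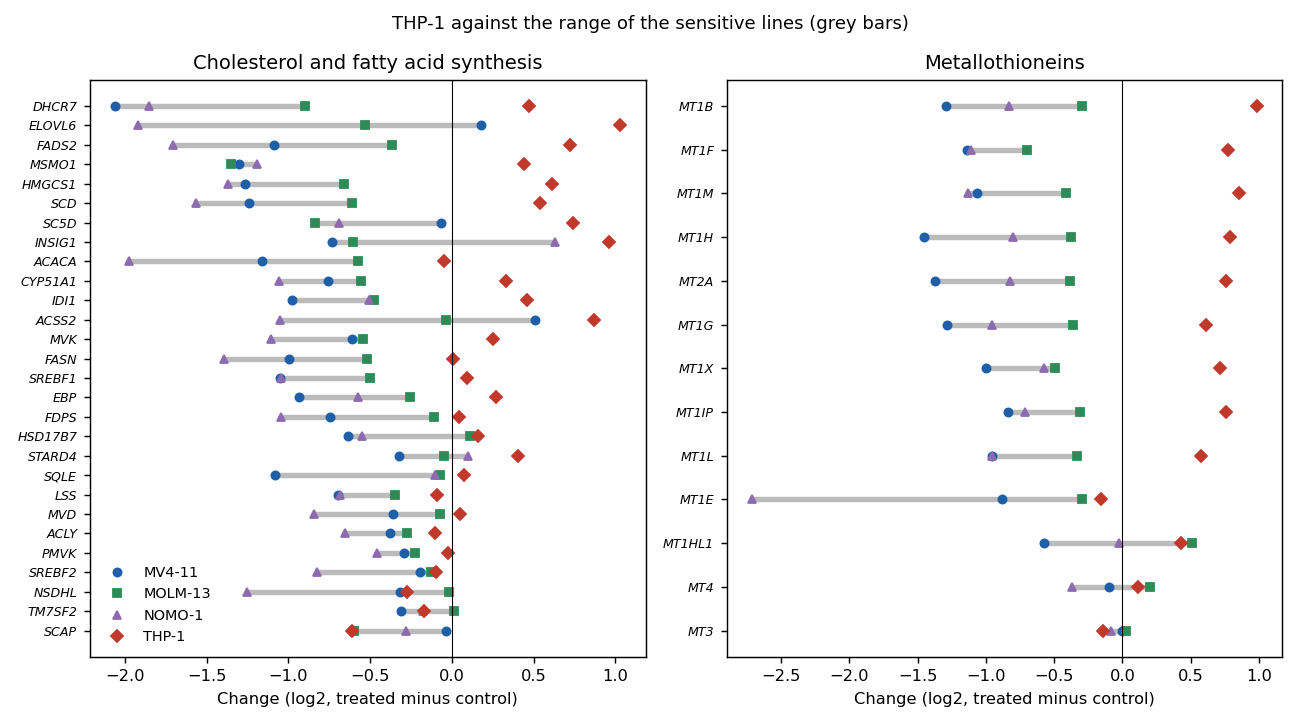
Treated minus control change (log2) of 28 cholesterol and fatty acid synthesis genes (left) and 13 metallothioneins (right) in the 4 lines, ordered by the difference; grey bars span MV4-11, MOLM-13 and NOMO-1. Red diamonds (THP-1) lie to the right of the grey bar in 25 and 10 genes.

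Most proliferation genes had a more positive change in THP-1 than in each sensitive line, with none called singly by the fit without the block. THP-1 lay above the range in 35 of 45 mitosis genes (77.8%) and in 31 of 46 DNA replication genes (67.4%) and below it in none, against 24.6% and 23.5% of all genes. By limma without the replicate block, 5 mitosis and 6 replication genes were higher and none lower at an unadjusted p under 0.05. With the block NUF2 and KIF11, a kinetochore protein and a spindle motor, were called higher. The median change of mitosis genes was 0.13 in THP-1, -0.90 in MV4-11, -0.25 in MOLM-13 and -0.48 in NOMO-1, and that of replication genes -0.10, -0.93, -0.26 and -0.83. CCNB1, the mitotic cyclin B, read 9.23 and 8.94 in THP-1 control cells and 9.41 and 8.84 after treatment. It went from 8.74 and 8.35 to 7.72 and 6.83 in MV4-11, from 9.13 and 8.70 to 8.99 and 8.44 in MOLM-13 and from 9.02 and 8.06 to 7.70 and 7.07 in NOMO-1. Replicate 1 was the higher array in each of these pairs, and the treated array lay below the control array of the same number in every sensitive line. GINS1, a subunit of the replicative helicase, changed by 0.11 in THP-1 and by -1.30, -0.57 and -0.84 in MV4-11, MOLM-13 and NOMO-1, and PCNA, the polymerase clamp, by 0.22 and by -0.87, -0.28 and -0.74. With each replicate number taken by itself, THP-1 was above the range in 31 and 32 mitosis genes and in 28 and 31 replication genes. The counts leaned on MOLM-13, the sensitive line that changed least: they fell to 20 and 19 without MOLM-13 treated 2, the replication count also to 20 without THP-1 control 2, and they rose to 42 and 43 without the line. THP-1 control cells already had the highest mean of the 4 lines in 34 mitosis genes (75.6%, against 24.5% of all genes), and treated cells in 42 (93.3%, against 24.2%). G1 cell cycle regulators (24 measured, median difference 0.30) and p53 targets (26, 0.31) had no called gene (2 and 4 higher, 1 and 0 lower at an unadjusted p under 0.05) and 1 higher gene each with the replicate block.

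**Figure D4:**
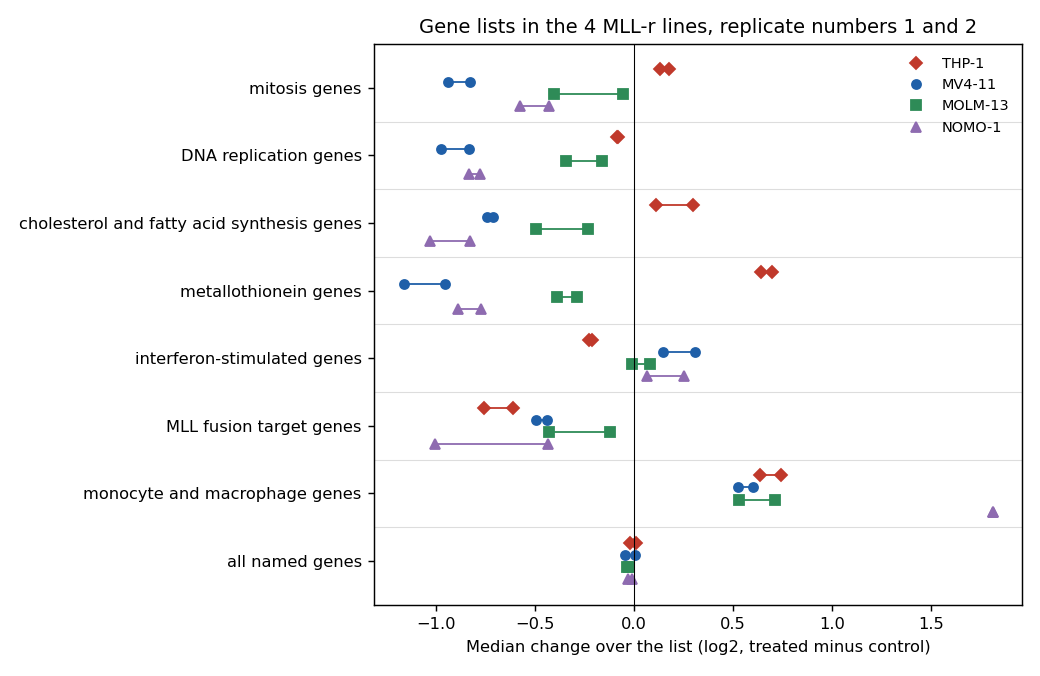
Median treated minus control change (log2, horizontal) of 7 gene lists and of all named genes in each line, with replicate numbers 1 and 2 plotted as separate points joined by a line. THP-1 (red diamonds) lies to the right of all 6 points of the sensitive lines for mitosis, replication, lipid synthesis and metallothionein genes and to the left of them for interferon-stimulated genes.

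Interferon-stimulated genes went the other way. THP-1 lay below the range in 26 of 50 (52%, against 23.5% of all genes) and above it in none. The test called 2 lower and none higher, against 0.232% and 0.141% of all genes. The median change was -0.18 in THP-1, 0.14 in MV4-11, -0.01 in MOLM-13 and 0.19 in NOMO-1. The replicate block called 7 lower, against 1.26% of all genes. IFI6, a mitochondrial protein induced by type I interferon, read 8.78 and 8.69 in THP-1 control cells and 8.23 and 8.39 after treatment. It went from 6.77 and 6.58 to 8.09 and 7.97 in MV4-11, from 6.53 and 6.24 to 7.28 and 6.94 in MOLM-13 and from 7.32 and 7.00 to 8.66 and 8.75 in NOMO-1. THP-1 was the highest line among the controls and NOMO-1 among the treated cells, with a difference of -1.63 ± 0.27 (adjusted p = 0.0177, lost without 4 of the 16 arrays, up to 0.15). OAS1, an antiviral sensor of double-stranded RNA, went from 6.52 and 5.66 to 4.74 and 4.63 in THP-1 and from 5.04 and 4.01 to 6.24 and 6.23 in NOMO-1 (difference -2.14 ± 0.41, adjusted p = 0.0482, lost without 14 of the arrays). OAS2 (-2.41 ± 0.57) and IFIT1 (-1.43 ± 0.54), which passed only with the replicate block, changed by -2.46 and -1.45 in THP-1 and by -0.32 to 0.15 in the sensitive lines, where they read between 2.50 and 4.17. THP-1 control cells had the highest mean of the 4 lines in 29 of the 50 genes (58%, against 24.5% of all genes). Treated THP-1 cells had it in 13 (26%, against 24.2%), near the share of all genes. The core of the interferon-stimulated response element, searched as a pair of GAAA runs with any 2 bases between on both strands, was in 27 of the 39 promoters of the list found in RefSeq (69.2%) and in 3.65% of 27305 promoters. OAS1 held no match, but its window holds gaaacgaaa, a pair of GAAA runs at a closer spacing that the search does not count. Lack of a match thus does not show that a promoter lacks the element. IFI6 held 3 matches, in capitals, in its window on the minus strand at chr1:27672143-27672442:
IFI6: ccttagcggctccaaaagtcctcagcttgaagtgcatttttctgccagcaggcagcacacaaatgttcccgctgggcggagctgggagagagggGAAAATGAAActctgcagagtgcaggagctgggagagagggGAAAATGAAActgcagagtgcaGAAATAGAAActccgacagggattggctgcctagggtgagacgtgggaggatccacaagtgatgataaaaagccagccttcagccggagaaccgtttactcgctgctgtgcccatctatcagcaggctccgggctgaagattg

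Elsewhere, lists held few called genes by the fit without the block. Among SOCS and STAT5 signaling genes (27 measured) PIM1 was called higher and SOCS2 lower, while STAT5A changed by -0.09 in THP-1 against 0.02, and MYC by -0.18 against -0.38 (difference 0.21 ± 0.25). Among MHC class II genes (12) HLA-DQA1 was called lower, among chemokines, cytokines and their receptors (40) IL1R2, and among immediate early and MAPK feedback genes (33) NR4A3. The replicate block called 2 genes of the chemokine list higher and 5 lower, and 1 and 4 of the immediate early list. SOCS and STAT5 signaling genes then held 3 and 1, MHC class II genes 1 and 1, and all genes 214 (1.21%) and 222 (1.26%). PBK, a mitotic kinase that the study names, changed by -0.59 against -0.92 (difference 0.33 ± 0.77), and its sign turned without THP-1 treated 1. BCL2 family (16), DOT1L complex (19), methyl donor (19), drug efflux (18), myeloid transcription factor (29), lysosomal (26) and ribosome biogenesis genes (30) had no called gene by limma without the block, with 3 higher and 10 lower at an unadjusted p under 0.05 in these 7 lists. With the replicate block they held 1 higher gene, of the DOT1L complex list, and 6 lower, of which 3 were lysosomal, 2 drug efflux and 1 a myeloid transcription factor.

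Called genes also differed before treatment. For the 19 genes that fell in THP-1 and not in the sensitive mean, THP-1 control cells had the highest mean of the 4 lines in 16. Their median signal was 8.27 in THP-1 control cells against 5.31 in the sensitive lines, and 5.63 against 5.10 after treatment. For the 25 higher genes, THP-1 control cells were the lowest in 12, and the median was 6.15 against 7.75 before and 8.12 against 7.65 after treatment. The same control arrays enter the level and the change, so these values are a description.

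The 3 lines without MLL-r give arrays that the comparison did not use. OCI-AML3, whose proliferation the drug reduced, was set against U-937 and HL-60, which it did not. Among the 25 genes higher in THP-1, 12 had a larger change in OCI-AML3 than in the mean of U-937 and HL-60, and among the 41 lower genes 29 had, against 46.2% of all genes. The median of this second difference was -0.13 and 0.28 (all genes -0.03), and across genes it correlated with the THP-1 difference at r = -0.084. The second difference was called higher in 62 genes (0.351%), BCL11A (2.34), OAS1 (4.40) and IFI6 (3.28) among them (limma, adjusted p = 0.00924, 4.44e-05 and 0.000612). OAS1 and IFI6, lower in THP-1 than in the sensitive MLL-r lines, rose by 4.54 and 3.50 in OCI-AML3. Within OCI-AML3, where 144 genes rose (0.814%), PRDM1, CHI3L1 and PCDH7 of the lower genes and BCL11A, RIPOR2 and NFE2 of the higher genes rose too, CHI3L1 was 1 of 4 genes (0.0226%) that rose in U-937, and limma without the block called no gene in HL-60 (631 at an unadjusted p under 0.05). CD209 changed by 0.65, SHOX2 by -0.27 and SOCS2 by -0.04 in OCI-AML3, none passing the test.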

How the data were processed

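RNA of 7 AML lines was hybridized to Affymetrix Clariom S arrays, and the 16 arrays of the 4 MLL-r lines were used for the comparison. The authors deposited log2 signals, summarized and normalized over all 28 arrays by RMA (robust multi-array average) in R 3.6.1 per the labels; the genome build is not given in the sources used here. RMA shrinks differences of dim genes, and its common distribution hides a change shared by all genes. Of 27189 entries, 5741 array controls and 3739 probe sets without a symbol were left out, and probe sets of the same gene were averaged (20 genes), leaving 17687 genes. The number of arrays limits the precision.

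Groups came from the labels. limma 3.58.1 (R 4.3.3; lmFit, eBayes) was fitted to 8 group means with 8 residual degrees of freedom, and THP-1 treated minus control minus the mean of the same change in MV4-11, MOLM-13 and NOMO-1 was tested with Benjamini-Hochberg adjustment over all 17687 genes at 0.05. The same test ran within each line and, on the other 12 arrays, in the lines without MLL-r. Deviations from the group mean of control and treated arrays with the same number correlated at 0.534 to 0.635 over genes in all 4 lines, so the numbers pair the arrays. The study's text speaks of paired samples while its deposited fits hold no pairing, so the blocked fit (replicate number as a factor) is reported next to the unblocked fit where the call of a difference changes; within a line, rose and fell refer to the unblocked fit, and blocked calls are given as counts and for genes where the wording turns on them. Alternatives were the block, all 28 arrays, lines as samples, leaving out a line or an array, a limit on dim genes, renewed quantile normalization, a robust trended prior, array weights, unnamed probe sets and a log2 limit.

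The members and gene lists were chosen with earlier results of these data known. Named genes were the 12 largest differences in each direction among called genes outside the range, up to 8 genes per direction called in all sensitive lines and not THP-1 or the reverse, up to 2 called genes per list and direction, and genes the study names. The other called genes, the metallothioneins and 17 further genes were added after their values were seen. The calculation was tested on simulated data with independent noise on each array. Since these had no pairing by replicate number, they do not check either fit under the pairing of the real arrays. Motifs were searched in RefSeq promoters, and figures drawn with matplotlib 3.10.9. XIST and genes of the Y chromosome were not named.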

Additional observations from a re-analysis of the deposited data

Results flagged for a closer look

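Each of the 66 genes below was singled out because the drug response of THP-1 differed from the mean response of the sensitive lines by a test of the difference itself (limma, Benjamini-Hochberg adjusted p under 0.05, 0.373% of all genes). Values in parentheses are the difference on the log2 scale, THP-1 minus the sensitive lines.

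Lower genes that changed by the test within THP-1 and not in the mean of the sensitive lines, which does not say that no single sensitive line changed, were SHOX2 (-4.2), SP9 (-3.59), KCNH2 (-3.12), FOXD1 (-3.02), PGR (-2.93), THSD7A (-2.84), BHLHE22 (-2.71), TIMP3 (-2.67), GPR183 (-2.65), POPDC1-AS1 (-2.48), EFNA5 (-2.38), WNK1 (-1.94), SOX4 (-1.9), PCDH7 (-1.86), SYDE2 (-1.85), CTSG (-1.75), MARCKSL1 (-1.62), DMWD (-1.32) and DBN1 (-1.31). Those that changed in that mean and not in THP-1 were SLC7A11 (-3.19), GFRA2 (-3.05), CD209 (-3.02), PRDM1 (-2.71), MMP2 (-2.61), IL18BP (-2.25), IL1R2 (-2.25), STEAP4 (-2.01), CHI3L1 (-1.95), PTX3 (-1.82), IGF1 (-1.76), PLEKHO1 (-1.76), GABARAPL1 (-1.72), SIGLEC10 (-1.67), IFI6 (-1.63), HLA-DQA1 (-1.6), NR4A3 (-1.56) and MMP14 (-1.39). Both sides changed, in the same direction, for SOCS2 (-2.96) and ZNF521 (-2.67), and in opposite directions for CPEB2 (-2.51). Neither side passed its own test for OAS1 (-2.14).

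Higher genes that changed within THP-1 and not in the mean of the sensitive lines were NFE2 (1.39), MPP7 (1.51), CD300A (1.54), CST7 (1.68), BCL11A (1.83), RIPOR2 (1.87), PLEKHA2 (2.06), MPO (2.32), NT5E (2.46) and PEX5L (3.62). Those that changed in that mean and not in THP-1 were MT1G (1.48), MT2A (1.62), SCD (1.68), MT1M (1.72), MT1F (1.75), FADS2 (1.78), MT1B (1.79), OCSTAMP (2.22) and IL31RA (2.89). Both sides changed, in the same direction, for ITGAM (1.66), SPP1 (2.09) and S100A12 (2.9), and in opposite directions for PIM1 (1.86) and FCER2 (2.9). Neither side passed its own test for ANXA8L1 (1.58). A change past the threshold on 1 side and not on the other is only a grouping here, and the test is that of the difference. The grouping is that of the fit without the replicate block, and with the block 18 of the 66 genes (10 higher, 8 lower) changed on both sides in opposite directions.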

How the results depend on the processing

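Against 25 genes called higher and 41 lower, the fit with the replicate block called 214 and 222, the fit with all 28 arrays 45 and 67, renewed quantile normalization 39 and 63, and the fit with each line as 1 sample (2 residual degrees of freedom) 0 and 0, with 669 genes at an unadjusted p under 0.05 and a smallest adjusted p of 0.231. Without MV4-11, 14 were higher, and without NOMO-1 12 were higher and 21 lower. Of the 66 genes, 66 stayed called with the block, 59 with all arrays, 60 after quantile normalization, 32 without MV4-11, 50 without MOLM-13 and 25 without NOMO-1. Leaving out each array in turn gave 3 to 23 higher and 11 to 44 lower. With a mean of at least 5 as limit, THP-1 was outside the range in 5263 of 10935 genes, since fewer genes were tested. Other settings kept counts within 1.5 times, and no called gene changed sign under any setting.

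Sign changes were seen in genes that were not called. Without MV4-11 the difference was 0.0537 for MEIS1 and 0.0284 for STAT5A, without MOLM-13 it was 0.26 for MEIS1, 0.23 for CDK6 and 0.0593 for CD14, and without NOMO-1 it was 0.51 for CD14 and 0.13 for CD36. Leaving out each array in turn, differences ran from -0.52 to 0.0806 for MEIS1, -0.52 to 1.18 for PBK, -0.33 to 0.12 for CDK6, -0.24 to 0.0214 for STAT5A, -0.45 to 0.14 for CD14, -0.81 to 0.19 for CD36, -0.72 to 0.0219 for DOT1L, -0.48 to 0.23 for MT3 and -0.13 to 0.54 for MT4. The causes were not tested.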
